A study of Mus musculus with 8 samples.

Results

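The BAFF and APRIL system was described here through 7 genes, taken by symbol from the FPKM table: the ligand genes Tnfsf13b and Tnfsf13, the receptor genes Tnfrsf13b, Tnfrsf13c and Tnfrsf17, and the adaptor genes Traf2 and Traf3. They had 9 transcripts among 23517, which belong to 17738 symbols, and all 9 passed the filter of a mean of at least 0.5 FPKM. FPKM are fragments scaled for transcript length and sequencing depth, so levels can be set side by side between genes. RNA came from whole spleens of untreated male C57BL/6 mice aged 8 to 12 weeks, 4 wild-type (WT) and 4 carrying the TTPΔARE allele. Tristetraprolin (TTP), the product of Zfp36, targets messenger RNAs with AU-rich elements (AREs) for decay. In the TTPΔARE allele the element of the Zfp36 message itself is deleted. No source used here gives zygosity or litters, and the controls carried no allele or treatment of their own.

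BAFF, encoded by Tnfsf13b, is a TNF family cytokine made mainly by myeloid and stromal cells, and mature B cells need it to survive. It binds BAFF-R (Tnfrsf13c), the receptor that carries the survival signal, TACI (Tnfrsf13b), which is abundant on marginal zone B cells and restrains B cell numbers, and BCMA (Tnfrsf17), the receptor of plasma cells. APRIL, encoded by Tnfsf13, binds TACI and BCMA but not BAFF-R. In resting B cells TRAF3 and TRAF2 hold the kinase NIK (Map3k14) at a low level, and BAFF-R engagement releases it and starts alternative NF-κB signalling.

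TTP is known to recognise the heptamer UAUUUAU, written TATTTAT in DNA letters, so the annotated 3′ untranslated regions (3′ UTRs) of the members were searched for it on the sense strand. In GENCODE M21, on GRCm38, the assembly also called mm10, Tnfsf13b has 1 such heptamer in a 3′ UTR of 3631 bases and Traf3 has 2 in 5088 bases. The 3′ UTRs of Tnfsf13 (389 bases), Tnfrsf13c (1355 bases), Tnfrsf17 (116 bases) and Traf2 (1428 bases) held none. The matched Tnfrsf13b transcript has no annotated 3′ UTR in that release and was not searched. For Traf3 only 1 of its 2 deposited transcripts, the more abundant, was searched. Of 15728 tested transcripts with a 3′ UTR, 26.9% held at least 1 heptamer, and 6.91% held the longer nonamer TTATTTATT, of which the Tnfsf13b site is an example. The 3 sites are shown because they are the only matches, in the member transcripts searched, to the motif of the protein whose own message was altered. Capitals mark the heptamer, 5′ to 3′ on the sense strand.
Tnfsf13b, chr8:10037074-10037103, plus strand: attggcccattTATTTATtgaattgtttgg
Traf3, chr12:111262264-111262293, plus strand: ctctgaaggatTATTTATccatcaacaaga
Traf3, chr12:111267009-111267038, plus strand: gtttcatttggTATTTATttgtgttttgag
A match is a stretch of letters, and binding there was not measured. The last Traf3 site lies 4960 bases into its 3′ UTR.

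Zfp36 itself, the altered gene, was at 36.4 to 44.9 FPKM in the WT spleens and 46.1 to 57.5 FPKM in the TTPΔARE spleens, without overlap (log2 0.39, limma adjusted p = 0.0323). Depth, estimated from the steps between low FPKM values, was 28.4 to 32.2 M fragments per spleen. Of 16608 transcripts tested, 664 passed (4.00%), 333 higher and 331 lower, and 3503 (21.1%) had an unadjusted p under 0.05. Cell type markers differed between the genotypes. The summed level of 12 erythroid markers was 4139 to 7718 FPKM in WT and 9796 to 15510 FPKM in TTPΔARE spleens (6 rose, median log2 1.26), and that of 12 B cell markers 1208 to 1330 and 1047 to 1137 FPKM. In whole-spleen RNA fewer cells of a type and less RNA per cell cannot be told apart.

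The messages of TACI and BAFF-R were lower in every TTPΔARE spleen than in every WT spleen, 2 of the 9 member transcripts against 5.99% of all tested. TACI was the 1 member transcript that fell by the test across all transcripts, against 1.99% of all tested. The 4 WT spleens had 22.3, 19.4, 20.8 and 20.6 FPKM of Tnfrsf13b (replicates 1 to 4), and the TTPΔARE spleens 15.9, 17.3, 16.2 and 17.3 FPKM. Every TTPΔARE value lay below every WT value. Tnfrsf13b, on chromosome 11 at 61126755 to 61149372 of the plus strand, thus fell from 20.8 ± 1.20 FPKM in WT to 16.7 ± 0.755 FPKM in TTPΔARE spleens (SD, n = 4 each), a log2 difference of -0.31 (SE 0.0593, 95% interval -0.44 to -0.18, limma adjusted p = 0.0177). The span of the processed pseudogene Gm12269, on the minus strand, overlaps that of Tnfrsf13b. Whether it touches an exon was not examined, and the strand setting of the counting is not given in the sources used here. Any part of Gm12269 reads in the TACI values was not tested. In linear terms TACI message was 1.24-fold lower. The exact two-sided permutation test over 70 assignments of the spleens gave p = 0.0286, the smallest that 4 against 4 can give. The call was lost without WT replicate 4 (adjusted p = 0.0521) or TTPΔARE replicate 3 (0.0686), while the log2 difference stayed between -0.34 and -0.28 over all 8 spleens left out in turn.

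Tnfrsf13c, encoding BAFF-R, was the most abundant member and was lower by nearly the same proportion without passing. Its values were 48.8, 53.1, 49.2 and 60.5 FPKM in WT and 46.0, 40.3, 43.0 and 43.6 FPKM in TTPΔARE spleens. Again no TTPΔARE spleen reached the lowest WT spleen, with WT replicate 4 the highest of all. The means were 52.9 ± 5.45 and 43.2 ± 2.32 FPKM (SD, n = 4 each; log2 -0.28, SE 0.0754, 95% interval -0.45 to -0.12), with an unadjusted limma p of 0.00307, an adjusted p of 0.0609 and an exact permutation p of 0.0286. Tnfrsf13c lies on chromosome 15 at 82221743 to 82224369 of the minus strand, and no annotated gene overlaps it. With sample weights in the fit it passed (log2 -0.28, adjusted p = 0.0428).

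Tnfrsf17, encoding BCMA, was scarce and variable. WT spleens had 1.52, 0.707, 0.883 and 0.574 FPKM, and TTPΔARE spleens 0.613, 0.552, 0.506 and 0.917 FPKM. The groups overlapped, and WT replicate 1 stood above the other 7 spleens. At an annotated length of 815 bases these values stand for about 13 to 35 fragments per spleen, so counting error alone is wide. The log2 difference was -0.28 (SE 0.181, 95% interval -0.68 to 0.12, limma adjusted p = 0.416), and -0.10 without WT replicate 1. In the same spleen the plasma cell list was highest too, with a mean log2(FPKM + 0.5) of 4.41 against 3.75 to 4.15 in the other WT and 3.76 to 3.90 in the TTPΔARE spleens. WT replicate 4 had the next highest list mean (4.15), yet the least Tnfrsf17 of the WT spleens (0.574 FPKM). Its log2 ratio of Tnfrsf17 to the list, -4.04, was the lowest of all spleens. Relative to that list Tnfrsf17 stood at -3.60 ± 0.295 in WT and -3.64 ± 0.221 in TTPΔARE spleens (log2 ratio, SD, n = 4 each).

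**Figure D1:**
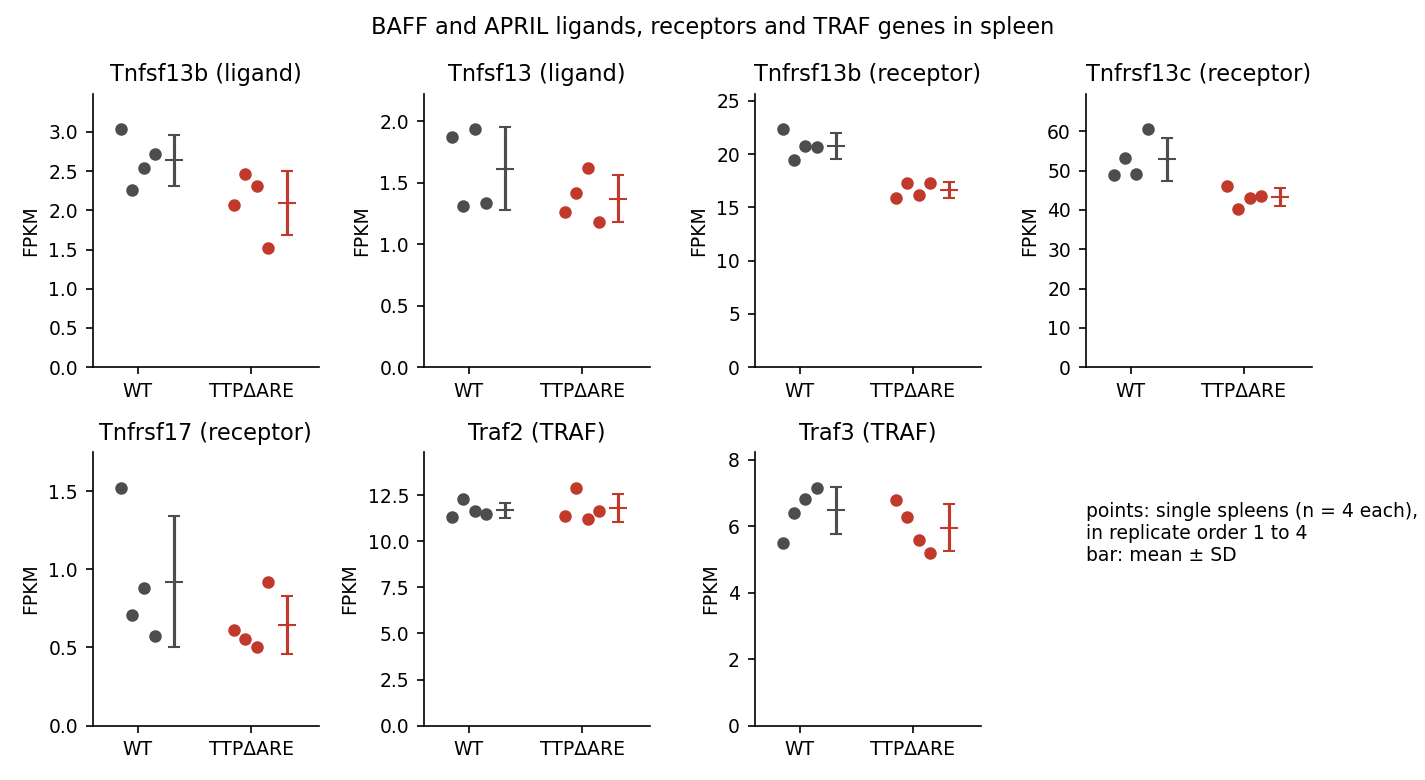
FPKM (y axis, linear from 0) of the 7 genes in each spleen, with WT in grey and TTPΔARE in red; points are single spleens and the bar is the mean ± SD (n = 4). The groups do not overlap for Tnfrsf13b (19.4 to 22.3 against 15.9 to 17.3 FPKM) and Tnfrsf13c (48.8 to 60.5 against 40.3 to 46.0 FPKM), and overlap for the other genes.

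Neither ligand message rose in TTPΔARE spleens. Tnfsf13b, encoding BAFF, was at 3.04, 2.26, 2.54 and 2.73 FPKM in WT and at 2.07, 2.47, 2.31 and 1.52 FPKM in TTPΔARE spleens. The groups overlapped, and TTPΔARE replicate 4 was the lowest of the 8. The means were 2.64 ± 0.328 and 2.09 ± 0.413 FPKM (SD, n = 4 each; log2 -0.28, SE 0.120, 95% interval -0.55 to -0.02), with an unadjusted limma p of 0.0374 and an adjusted p of 0.206. Without TTPΔARE replicate 4 the log2 difference was -0.17. Tnfsf13b lies on chromosome 8 at 10006467 to 10039072 of the plus strand, and Gm44789 overlaps it on the minus strand.

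Tnfsf13, encoding APRIL, had 2 deposited transcripts. The more abundant, NM_001159505, was at 1.88, 1.31, 1.94 and 1.33 FPKM in WT and 1.26, 1.42, 1.62 and 1.18 FPKM in TTPΔARE spleens (log2 -0.17, SE 0.118, 95% interval -0.43 to 0.09, limma adjusted p = 0.462). The log2 difference was -0.11 without WT replicate 1 and -0.10 without WT replicate 3. The other, NM_023517, ranged over 1.33 to 1.75 FPKM in WT and 1.32 to 1.64 FPKM in TTPΔARE spleens (log2 -0.08, adjusted p = 0.659). The groups overlapped for both transcripts. Both were matched to 1 GENCODE transcript, and how fragments were shared between them is not given, so they cannot be taken as independent. Tnfsf13 lies on the minus strand of chromosome 11 at 69682846 to 69685784, 465 bases from Tnfsf12, the gene of the cytokine TWEAK. It overlaps the antisense gene Tnfsf13os and Tnfsfm13, the joint message of both cytokines. Tnfsfm13 lies on the same strand as Tnfsf13, so a strand setting would not separate their reads. Tnfsf13os lies on the other strand, and the setting is not given. Any part of these genes in the Tnfsf13 values was not tested. Tnfsf12 was at 2.31 ± 0.399 FPKM in WT and 2.60 ± 0.218 FPKM in TTPΔARE spleens and did not pass (log2 0.15, adjusted p = 0.447).

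By gene, the adaptor messages had the smallest log2 differences. Traf2 was at 11.3, 12.3, 11.6 and 11.5 FPKM in WT and 11.4, 12.9, 11.2 and 11.6 FPKM in TTPΔARE spleens. The values interleaved, with a log2 difference of 0.01 (SE 0.0594, 95% interval -0.12 to 0.14, limma adjusted p = 0.943), the narrowest interval of the 7 genes together with that of TACI. Traf3, read from NM_011632, was at 5.49, 6.40, 6.82 and 7.15 FPKM in WT and 6.79, 6.28, 5.57 and 5.19 FPKM in TTPΔARE spleens. Here WT replicate 1 was among the lowest spleens and WT replicate 4 the highest (log2 -0.11, SE 0.0953, 95% interval -0.32 to 0.10, adjusted p = 0.558). The second Traf3 transcript, NM_001048206, had a log2 difference of -0.06 (adjusted p = 0.772). Traf3, on chromosome 12, overlaps 4930595D18Rik on the other strand, and Traf2 overlaps the processed pseudogene Gm13433, also on the other strand.

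Read together, 8 of the 9 transcripts, and 6 of the 7 genes, had a log2 difference below 0, against 49.0% of all transcripts tested. By limma 0 of the 9 rose, against 2.01% of all tested, and 0 were higher without overlap, against 6.53%. An unadjusted p under 0.05 was reached by 3 of the 9, against 21.1% of all. The mean log2 difference was -0.23 for the ligands, -0.29 for the receptors and -0.05 for the TRAF genes. The receptor mean thus lay 0.24 below that of the TRAF genes, and 0.14 below it without WT replicate 1 (log2 -0.24 and -0.14); with the B cell covariate the gap was -0.64. The ligand mean lay 0.07 above that of the receptors, a gap with no steady direction: it was -0.01 without TTPΔARE replicate 3, -0.02 with the B cell covariate and 0.19 without TTPΔARE replicate 4. These gaps were not tested, since the genes were chosen with results known.

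The order of the levels was the same in both genotypes by the means: Tnfrsf13c, Tnfrsf13b, Traf2, Traf3, Tnfsf13b, Tnfsf13 and Tnfrsf17. Neighbours in this order did not overlap over the 4 spleens of a genotype, with these exceptions: Tnfsf13 and Tnfrsf17 in WT, and Tnfsf13b and Tnfsf13 in TTPΔARE. BAFF-R message exceeded TACI message by a log2 ratio of 1.32 ± 0.192 in WT and 1.35 ± 0.130 in TTPΔARE spleens (SD, n = 4 each).

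The balance of BAFF to its receptors was nearly the same in both genotypes. The log2 ratio of Tnfsf13b to Tnfrsf13c was -3.80, -4.28, -4.03 and -4.24 in WT and -4.17, -3.78, -3.95 and -4.45 in TTPΔARE spleens, with means of -4.09 ± 0.221 and -4.09 ± 0.288 (SD, n = 4 each). The TTPΔARE spleens stood on both sides of the WT range. For Tnfsf13b over Tnfrsf13b the means were -2.77 ± 0.0772 and -2.74 ± 0.267. There 3 TTPΔARE spleens were above all WT spleens, between -2.67 and -2.57, and TTPΔARE replicate 4 was below them at -3.14. APRIL over TACI went from -3.34 ± 0.181 to -3.20 ± 0.174, with overlapping values.

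B cell markers, like the receptors, were lower in TTPΔARE spleens. Of 12 B cell markers 2 fell, the inhibitory receptor Cd22 (log2 -0.57) and the IgE receptor Fcer2a (log2 -0.60), and all 12 had a log2 difference below 0, with a median of -0.21 against 0.005 over 12410 genes (1 transcript per gene). Their mean log2 level was 6.16, 6.27, 6.15 and 6.27 in WT and 5.96, 6.04, 5.88 and 5.93 in TTPΔARE spleens, without overlap. Set against this mean within each spleen, Tnfrsf13c was at -0.54, -0.53, -0.51 and -0.34 in WT and -0.42, -0.69, -0.43 and -0.47 in TTPΔARE spleens. The BAFF-R values relative to B cell markers therefore overlapped, with means of -0.48 ± 0.0957 and -0.50 ± 0.129. Tnfrsf13b relative to the same markers was also in overlapping ranges, -1.96 to -1.65 in WT and -1.92 to -1.78 in TTPΔARE spleens. Among the WT spleens replicate 2 had the least TACI message (19.4 FPKM) and the highest marker mean (6.274). Replicate 4 had nearly the same marker mean (6.268) with 20.6 FPKM of TACI message. WT replicate 2 set the lower end of the WT range of this ratio. Whether TACI message followed the marker mean within a genotype was not tested. Traf2, which many cell types express, was higher relative to the markers, -2.68 to -2.55 in WT against -2.39 to -2.30 in TTPΔARE spleens, without overlap. Traf2 itself differed by only log2 0.01, so this gap restates the lower marker mean and is not a separate observation. The part of B cell content in the TACI fall was not tested beyond these ratios and the covariate fits.

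**Figure D2:**
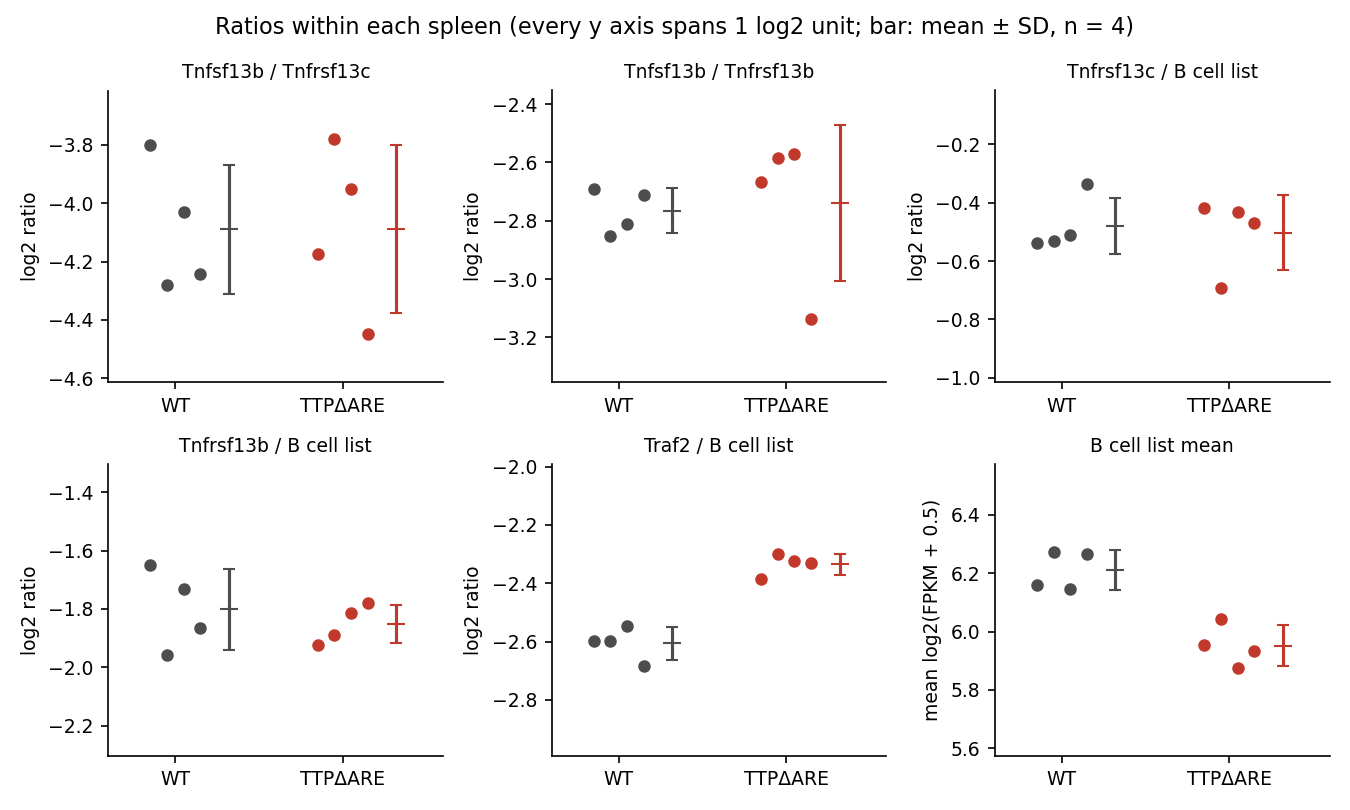
Log2 ratios within each spleen (every y axis spans 1 log2 unit) and, at the lower right, the mean log2(FPKM + 0.5) of 12 B cell markers; points are single spleens, WT in grey and TTPΔARE in red, and bars the mean ± SD (n = 4). The BAFF to BAFF-R ratio and the BAFF-R and TACI levels relative to B cell markers overlap between genotypes, whereas the B cell mean and Traf2 relative to it do not. The Traf2 ratio restates the B cell mean, as Traf2 itself differed by only log2 0.01.

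With a marker mean as a covariate, the TACI difference kept its size and lost its call. It was -0.30 (SE 0.121, 95% interval -0.56 to -0.03, adjusted p = 0.817) with the erythroid mean and -0.35 (SE 0.144, 95% interval -0.67 to -0.03, adjusted p = 0.733) with the B cell mean. In these fits limma called 0 of 16608 transcripts, with 982 and 1096 at an unadjusted p under 0.05. The erythroid and the B cell mean each separated the genotypes, so genotype and covariate cannot be told apart. BAFF-R stood at -0.31 with the erythroid and -0.15 with the B cell mean, and BAFF at -0.06 and -0.27. APRIL stood at -0.67 with the B cell mean (95% interval -1.20 to -0.13, adjusted p = 0.701), and BCMA at -0.85 (95% interval -1.75 to 0.05, adjusted p = 0.746).

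**Figure D3:**
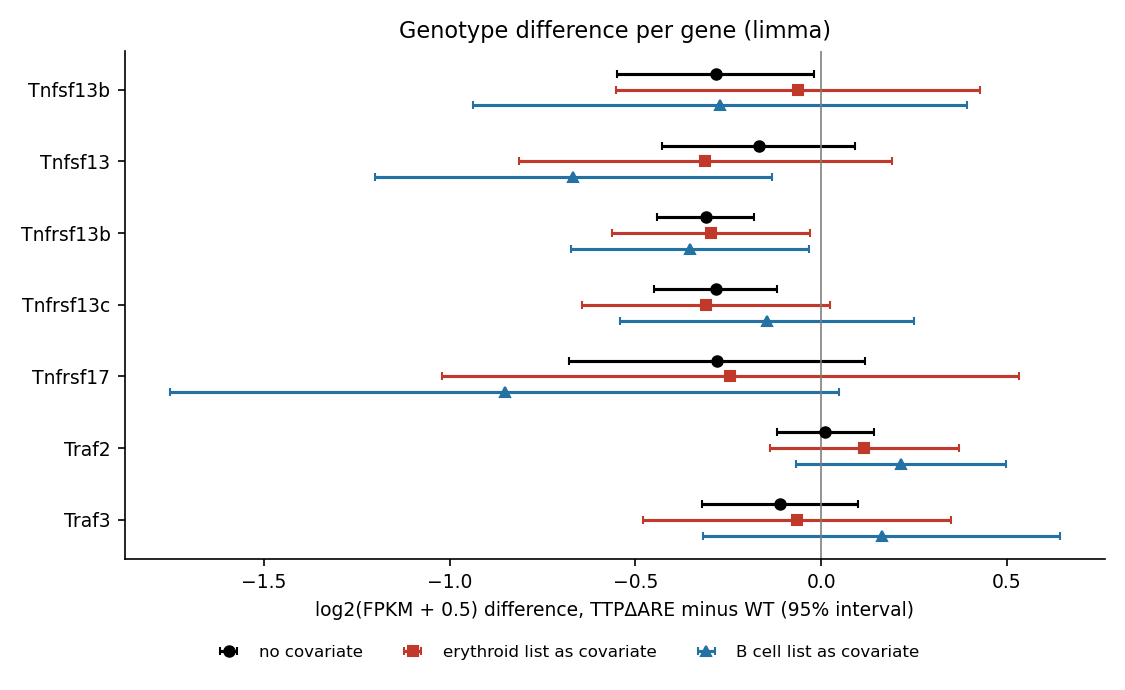
Log2(FPKM + 0.5) difference, TTPΔARE minus WT (x axis), of the 7 genes with 95% intervals from limma, without a covariate (black circles) and with the erythroid (red squares) or B cell (blue triangles) marker mean. The interval of Tnfrsf13b stays below 0 in each fit, while that of Traf2 spans 0 in each.

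Markers of the B cell subsets that carry these receptors did not move as one. Of 7 marginal zone B cell genes, the lipid-presenting molecule Cd1d1 (log2 0.31) and Myof (0.47) rose, and the list median was 0.15. In that list 5 genes had a log2 difference above 0 and 2 below it. Of 9 plasma cell genes Txndc5 fell (log2 -0.61), with a median of -0.19. Of 9 T cell markers 0 passed by limma, with 6 at an unadjusted p under 0.05 (median -0.20).

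Markers of cells known to make BAFF went in both directions. Of 10 dendritic cell genes Esam, Flt3, Itgae and Xcr1 rose (log2 0.41, 0.33, 0.56 and 0.53), and the list median was 0.39. Of 9 monocyte genes Ace (log2 -0.75) and the lysozyme Lyz2 (-0.49) fell (median 0.09). In that list 4 genes had a log2 difference below 0 and 5 above it. Of 11 neutrophil genes Mmp8 (1.17) and Retnlg (0.90) rose (median 0.24). Of 10 red pulp macrophage genes Emr1, the F4/80 gene, rose (0.36; median 0.17). Among 7 tested genes of lymphoid stroma the chemokines Ccl21a (-0.98) and Cxcl13 (-0.56), the adhesion molecule Madcam1 (-0.91) and the proteoglycan Dcn (-0.48) fell (median -0.48). The summed levels of the 8 listed stromal genes were 164 to 201 FPKM in WT and 104 to 141 FPKM in TTPΔARE spleens, without overlap. The part of these cells in the ligand values was not tested.

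Downstream of the receptors, 1 of 8 other TRAF genes and partners, 0 of 9 genes of alternative NF-κB signalling and 1 of 12 survival genes passed, beside 4.00% of all transcripts tested. Among the TRAF genes and partners, Traf3ip3, a TRAF3-interacting protein of lymphocytes and the most abundant of them, fell from 48.6 ± 0.969 to 40.9 ± 2.32 FPKM (SD, n = 4 each; log2 -0.25, limma adjusted p = 0.0355), and the median was -0.07. Of 9 genes of alternative NF-κB signalling 0 passed by limma, with 1 at an unadjusted p under 0.05 and a median of -0.03. That 1 was Map3k14, encoding NIK, at 13.4 ± 0.403 and 11.9 ± 0.549 FPKM (log2 -0.16, adjusted p = 0.118), without overlap. Birc3, encoding the ubiquitin ligase cIAP2, was the most abundant of the 9, with a mean of 42.5 FPKM in WT and 40.1 FPKM in TTPΔARE spleens (log2 -0.08, SE 0.0604). Nfkb2 and Relb, which encode the subunits of the alternative pathway, stood at log2 0.09 and 0.08 (adjusted p = 0.509 and 0.575).

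Among 12 genes of B cell survival and growth, Mef2c, a transcription factor of B cells and myeloid cells, fell from 17.0 ± 0.938 to 13.5 ± 1.51 FPKM (SD, n = 4 each; log2 -0.33, limma adjusted p = 0.0444), and the median was -0.02. Mcl1, the most abundant survival gene of the list, was at 96.9 ± 5.24 and 95.3 ± 7.81 FPKM (log2 -0.03). Bcl2l1, encoding Bcl-xL, was higher by log2 0.47 and did not pass (adjusted p = 0.0626). The list is broad, and its genes also serve other cells of the spleen.

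Of 11 genes that process the ligands or shed and bind the receptors, 0 passed by limma, with 3 at an unadjusted p under 0.05 and a median of 0.01. Furin, the protease that cleaves BAFF and APRIL, was at 4.47 ± 0.150 and 4.53 ± 0.360 FPKM (SD, n = 4 each; log2 0.01). Adam10, a sheddase of TACI and the most abundant of the list, was at 24.7 ± 1.65 and 27.9 ± 1.22 FPKM (log2 0.17, adjusted p = 0.141). Sdc1, a heparan sulfate proteoglycan of plasma cells that APRIL binds, was at 5.14 ± 1.16 and 3.47 ± 0.343 FPKM (log2 -0.49, adjusted p = 0.0536), without overlap.

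Among the wider TNF family, Tnfsf14, the LIGHT cytokine, rose as 1 of 11 other ligands tested, from 2.24 ± 0.193 to 2.99 ± 0.0732 FPKM (SD, n = 4 each; log2 0.35, limma adjusted p = 0.0212), while Ltb, the most abundant, stood at 0.06. Of 19 other receptors 0 passed by limma, with 5 at an unadjusted p under 0.05, and Tnfrsf14, the most abundant, stood at 0.04. The medians were 0.04 for the ligands and -0.02 for the receptors.

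**Figure D4:**
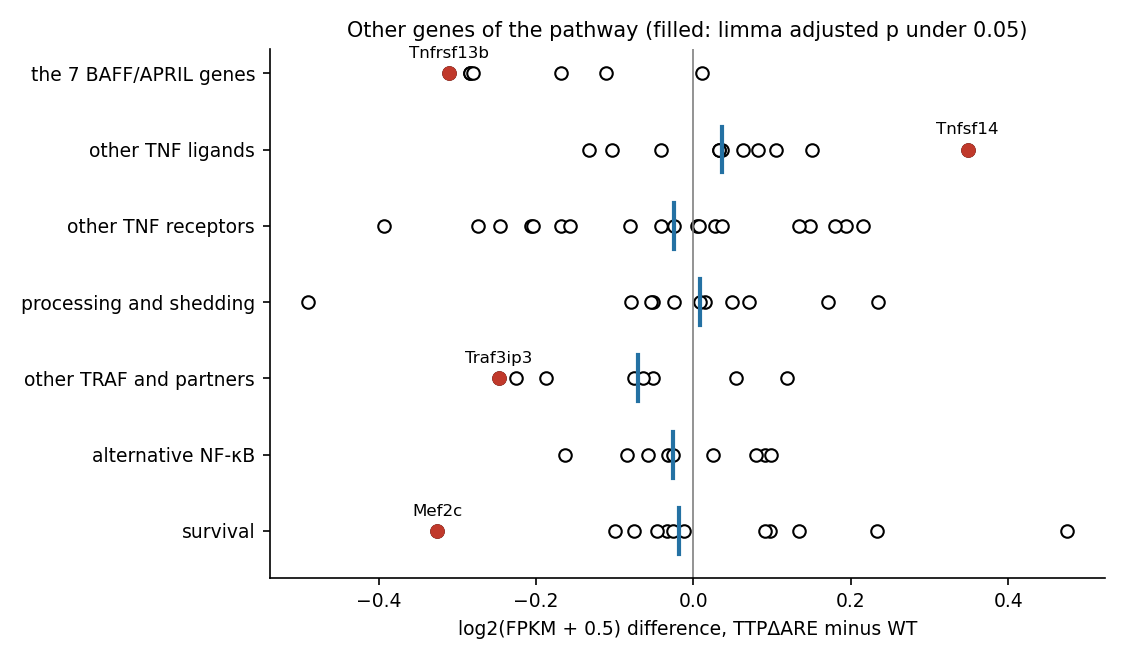
Log2(FPKM + 0.5) difference, TTPΔARE minus WT (x axis), of the 7 genes and of 6 lists of related genes (rows); each circle is a gene, filled red where the limma adjusted p was under 0.05, and blue bars are list medians. Tnfrsf13b, Traf3ip3 and Mef2c fell and Tnfsf14 rose, and the 6 list medians lie between -0.07 and 0.04.

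The genes whose values over the 8 spleens lay closest to each member were sought among 11166 genes with a mean of at least 1 FPKM, by the mean absolute difference in log2(FPKM + 0.5) after centring each gene. Closest to Tnfrsf13b were Gimap6, Gimap1 and Ctsh, with mean differences of 0.0332, 0.0353 and 0.0361, against a mean deviation of Tnfrsf13b from its own mean of 0.155. All of these were lower in TTPΔARE spleens and passed (log2 -0.34, -0.27 and -0.29). The search matched the difference between genotypes too, so their shared direction follows from how they were picked. Closest to Tnfrsf13c were Map3k9, Zbed4 and Hivep2 (0.0446, 0.0465 and 0.0487), which did not pass. Among the closest to Tnfsf13b were Gstt2 and Sspn (0.0703 and 0.0795), and closest to Tnfsf13 were Thoc7, Ptgr1 and Apip (0.0573 to 0.0651). Tnfrsf17 had Snhg6, Fuom and Mblac2 as its nearest genes at 0.0978 to 0.112. Traf2 had Slc16a7, Lrig2 and Lass5 (0.0213 to 0.0257), and Traf3 had Pdp2, Dvl3 and Dot1l (0.0287 to 0.0364).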

How the data were processed

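Spleen RNA of 8 mice was sequenced. The authors deposited FPKM for RefSeq transcripts, and the submitters' processing notes name BWA and mm10. How fragments were counted, the strand setting and any filter are not given here. Groups came from the genotype labels. Members and lists were chosen with earlier results of these data known.

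The 16608 transcripts whose mean reached 0.5 FPKM entered 1 two-sided limma fit of log2(FPKM + 0.5) (limma 3.58.1, R 4.3.3; eBayes with a variance trend), Benjamini-Hochberg adjusted over all of them, threshold 0.05. Folds on this scale understate changes of low transcripts. A gene is its transcript of the highest mean. The 9 member transcripts were also given an exact permutation test. On simulated data, with 50 transcripts changed at each fold, the fit recovered 38% of 1.25-fold and 88% of 1.5-fold changes. Of its 173 calls 12 were false. The simulated noise was independent between transcripts and few transcripts were changed, whereas 21.1% of the real ones had an unadjusted limma p under 0.05. The recovered shares thus do not hold for a given member. A difference of about 1.25-fold that did not pass is not shown to be absent.

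Depth came from FPKM of at most 0.5 and GENCODE M21 lengths: at the best depth 39.5 to 42.8% of these values came within 0.05 of a whole fragment, and 8.44 to 8.74% at the median of the depths tried, so counts were not rebuilt.

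The rule named the members, list genes that passed, the most abundant gene of each pathway list and the 3 nearest patterns. Zfp36, Tnfsf12, Map3k14, Nfkb2, Relb, Bcl2l1, Furin, Sdc1 and Cd40 were named outside it, after their values were seen, and 1 nearest gene is not reported here. Ly6g and Ahsp had no row. Alternatives were pseudocounts, filters, scalings, variance models, 1 transcript per symbol, marker covariates and leaving out each spleen.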

Additional observations from a re-analysis of the deposited data

Results flagged for a closer look

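Of 18 groups of 4 spleens examined (9 transcripts in each genotype), 1 held a spleen far from the rest: for the Tnfsf13 transcript NM_023517, TTPΔARE replicate 3 stood at 1.64 FPKM, above the other 3 by 0.875 of the group's whole range. Chance alone gives such a gap in about 1 in 20 groups.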

How the results depend on the processing

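No paired analysis was possible because the labels give no batch, litter or pairing between the genotypes. The fall of Tnfrsf13b held in 10 of 12 other settings and with 6 of 8 spleens left out in turn; it was lost with the erythroid covariate (-0.30, adjusted p = 0.817) and the B cell covariate (-0.35, adjusted p = 0.733), and spanned -0.34 to -0.28 with 1 spleen left out. Tnfrsf13c passed only with sample weights (-0.28, adjusted p = 0.0428), which took member transcripts called lower from 1 to 2; with either covariate the count was 0, and with 1 spleen left out 0 to 1. Traf2 changed sign with sample weights (-0.0078) and spanned -0.031 to 0.034 with 1 spleen left out (-0.0027 without WT replicate 1), and Traf3 changed sign with the B cell covariate (0.16), which also put the receptors 0.64 below the TRAF genes (-0.64). Both covariates left 0 transcripts higher and 0 lower; 1 transcript per symbol gave 215 lower of 12410 tested. With 1 spleen left out, 94 to 446 were higher and 104 to 331 lower, the fewest without TTPΔARE replicate 3 (94 and 104); without WT replicate 4 they were 114 and 138, and without TTPΔARE replicate 4 118 and 136. The cause was not tested. Tnfsf13b, Tnfsf13 and Tnfrsf17 kept their direction and stayed uncalled in every setting that tested them, though not their size: Tnfrsf17 spanned -0.85 to -0.20 over the other settings and -0.40 to -0.10 with 1 spleen left out, and Tnfsf13 -0.67 to -0.14 and -0.24 to -0.10. Depth limits Tnfrsf17 most, at about 13 to 35 fragments.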

Other observations

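Germinal centre genes, which mark B cells responding to antigen, were uneven between spleens of 1 genotype. The mean log2(FPKM + 0.5) of 6 such genes ranged over 1.14 to 2.17 in WT and 0.83 to 1.77 in TTPΔARE spleens. Of the 6, 0 passed by limma, with 1 at an unadjusted p under 0.05 and a median log2 difference of -0.50.

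Cd40, another TNF receptor of B cells that signals through TRAF proteins, was at 3.86 ± 0.290 and 3.12 ± 0.485 FPKM (log2 -0.27, limma adjusted p = 0.132), a difference of the size seen for BAFF-R, and did not pass.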
